A study of Saccharomyces cerevisiae with 56 samples.

Results

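The strain yJW1864, labelled as a dot6 tod6 stb3 deletion, was compared with its parental background BY4741 while both grew in replete medium, that is, minimal glucose medium with amino acids. Each strain gave 1 RNA-seq library and 1 ribosome profiling library, so the comparison rests on 4 of the 56 libraries of the series. Genes were members if more than 127 mRNA reads and at least 1 footprint were counted on the coding sequence (CDS) in both strains and were not marked as dubious, and 4884 of the 7133 listed features met this. The marker genes of the strains were left out of all results after the check of the labels.

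The wider study measured translation in budding yeast during a metabolic cycle and during amino acid starvation. It asked whether genes of ribosome biogenesis (ribi genes) change in translation efficiency (TE), which is footprint RPKM divided by mRNA RPKM. RPKM is the read count divided by CDS length and by library depth. All libraries used here came from cells treated with cycloheximide (CHX) before harvest, unless marked -CHX. The lysates gave footprints after RNase I digestion and RNA-seq after depletion of rRNA. The paper reports that CHX pretreatment raised ribi mRNA and lowered ribi footprints, strongly in starved cells and more weakly in replete ones. yJW1864 has no -CHX library, so a strain difference in the response to CHX cannot be told apart from a difference present before CHX.

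All strains compared are MATa haploids of 1 laboratory background. By label they carry deletion alleles of HIS3, LEU2, MET15 and URA3 (his3-Δ1 and leu2-Δ0 together with met15-Δ0 and ura3-Δ0). yJW1864 is labelled dot6::LEU2, tod6::URA3 and stb3::kanMX6 on that background, so it also carries markers that the others do not. yJW1861 and yJW1862 have NOP2 replaced by klNOP2, and carry NOP2 under the CCW12 promoter or its own promoter at yhrcdelta14 with kanMX6. yJW1863 carries GFP under the NOP2 promoter at the same site. BY4741 has none of these changes. The last 4 are called the intact strains because their labels leave DOT6, TOD6 and STB3 untouched, and yJW1861, yJW1862 and yJW1863 are called the reporter strains. Every strain was sampled once, nothing gives the number of clones behind it, and effects of the deletions and of the LEU2 and URA3 markers cannot be told apart.

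Dot6 and Tod6 are related Myb-like proteins that bind the PAC motif, and Stb3 binds the RRPE motif. Both motifs are common in promoters of ribi genes, where these proteins recruit the histone deacetylase Rpd3L and repress transcription when nutrients run out. In well-fed cells the kinases TORC1 and Sch9 hold the repressors inactive and ribi genes are highly expressed. Ribi factors build the small (SSU) and large (LSU) ribosomal subunits around the pre-rRNA that RNA polymerase I makes, and ribosomal protein (RP) genes are controlled by a separate set of factors.

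The labels were checked first. DOT6 (chromosome V, 333176 to 335188, sacCer3) had 4 mRNA counts in yJW1864 and 3136 in BY4741, with 11 and 3904 footprints. TOD6 (chromosome II, 117589 to 119166) had 1 mRNA count in yJW1864 and 861 in BY4741, with 1 and 318 footprints. Both genes were therefore near 0 in the library labelled as their deletion. STB3 (chromosome IV, 792348 to 793889) was not, with 921 mRNA counts (25.6 RPKM) in yJW1864 against 1112 (39.8 RPKM) in BY4741 and 28.6 to 43.4 RPKM in the reporter strains. Its footprints gave 16.6 RPKM in yJW1864, 12.3 RPKM in BY4741 and 18.8 to 21.7 RPKM in the reporter strains. The data thus go against the label for STB3, and "yJW1864" in all that follows means the libraries labelled yJW1864, with STB3 reads at nearly the level of the other strains. URA3, the tod6 marker, had 1052 mRNA counts in yJW1864 and 0 in BY4741. LEU2, the dot6 marker, had 0 mRNA counts in yJW1864 and 1 in BY4741, and the source of its cassette is not given in the sources used here. HIS3 reads were present in all 5 strains. MET15, listed as MET17, had 0 mRNA counts and 0 footprints in yJW1864, against 11 and 148 in BY4741.

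Mating type markers were read next. STE2, the α-factor receptor, had 14960 mRNA counts in yJW1864 and 8287 to 16286 in the intact strains, and BAR1, the secreted protease that cleaves α-factor, had 6911 in yJW1864. MF(ALPHA)1, an α-factor gene, had 0 mRNA counts in yJW1864 and 1 to 9 in the intact strains. STE3 and SAG1, also read as markers of α cells, were not at 0 in any strain. STE3 had 106 mRNA counts in yJW1864 and 100 to 153 in the intact strains, and SAG1 had 465 and 293 to 488. MATALPHA1 had no unmasked position, so it checks nothing. MFA1, an a-factor gene, left so few unmasked bases that yJW1864 had 7 mRNA counts and BY4741 had 6.

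Counts on genes came to 14300314 mRNA reads and 20036606 footprints in yJW1864, 11190961 and 18634885 in BY4741, and 9328372 to 15568802 per library in the reporter strains. The deposited values of yJW1864 and BY4741 leave out 108 bases at the ends of each CDS, while those of the reporter strains leave out 33. Footprints of BY4741 stood apart from those of the other 4 strains. The SD over genes of the log2 TE ratio was 0.54 for yJW1864 against BY4741 and 0.30 to 0.35 for yJW1864 against each reporter strain. It was 0.57 to 0.59 for BY4741 against the reporter strains and 0.22 to 0.29 among these. For mRNA the SD was 0.42 for yJW1864 against BY4741, 0.31 to 0.41 against the reporter strains, and 0.11 to 0.35 between intact strains. So yJW1864 was the farthest from the rest in mRNA, and BY4741 in footprints and TE. List medians and the largest gene differences in footprints and TE are therefore also given against the mean of the 3 reporter strains, an addition made after seeing the data. Both comparisons use the same yJW1864 libraries.

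**Figure D1:**
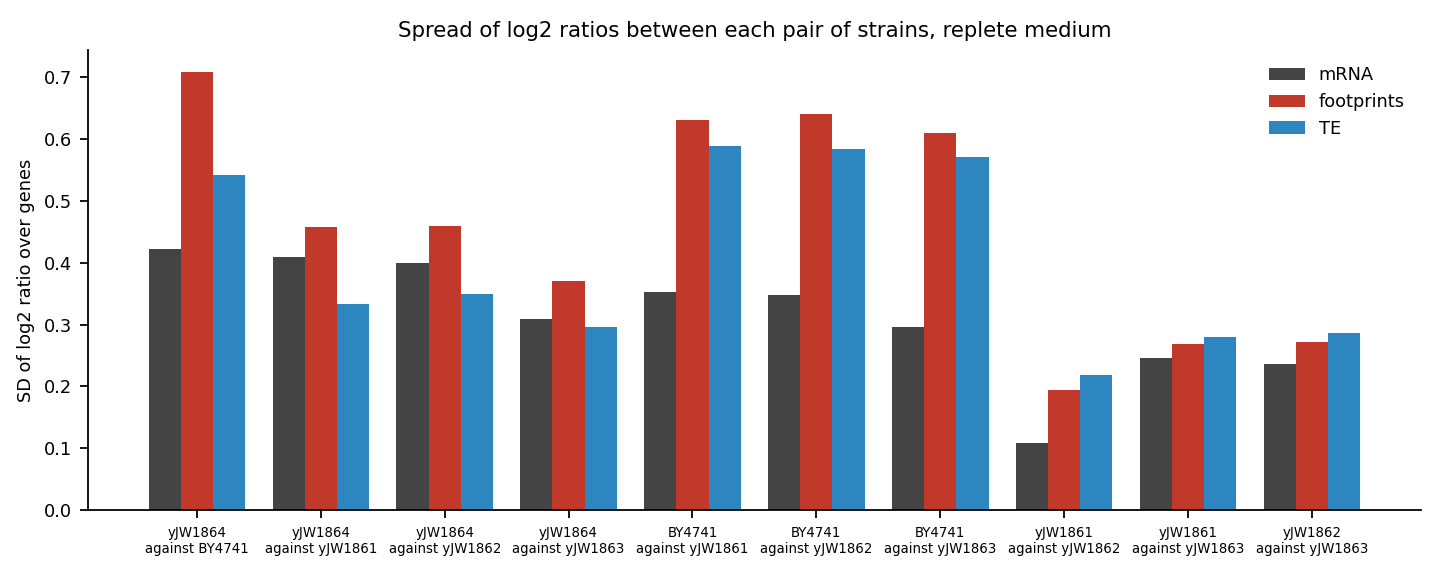
SD over genes of the log2 ratio between each pair of strains in replete medium, for mRNA, footprints and TE. Pairs with BY4741 have TE SDs of 0.54 to 0.59, and pairs without it 0.22 to 0.35.

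With 1 library a strain there is no test between yJW1864 and BY4741, so genes past 2-fold are counted after the median over all genes was subtracted (-0.12 for mRNA, 0.41 for footprints and 0.52 for TE on the log2 scale). For mRNA, 143 genes were past 2-fold higher in yJW1864, 2.93% of the genes compared, and 42 were past 2-fold lower, 0.86%. Without the subtraction these counts were 92 and 55. Of the 143 genes 53 were marked by the authors as ribi genes, or 37.1%, against 3.34% of all genes compared. No ribi gene was among the 42. Just inside the limit were ADE1 and DIM1 (1.001) and RPL24A (1.002), and just outside it TRM9 (0.9972), REX4 (0.9959) and SUI1 (0.9951).

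Ribi genes had more mRNA in yJW1864 than in BY4741, and this was seen across the whole pathway and not in a few genes. The files mark 171 ribi genes, and 163 of these met the minimums. Their median mRNA was 1.79-fold higher in yJW1864 than in BY4741 (log2 0.84, 95% interval of the median 0.76 to 0.92). Of the 163, 156 lay above 0, 53 were past 2-fold higher and 0 past 2-fold lower. The interval, like those of the ribi medians in footprints and TE below, covers only the spread over genes and takes the genes as independent. It does not cover the spread between libraries, cultures or strains. Against the mean of the 3 reporter strains the median was 0.56. The median level of the ribi genes relative to all genes was 0.94 in yJW1864, 0.14 in BY4741, 0.32 in yJW1861, 0.34 in yJW1862 and 0.47 in yJW1863, all on the log2 scale. Of the 162 ribi genes that met the minimums in all 5 strains, 145 had more mRNA in yJW1864 than in any of the 4 intact strains and 4 had less, while over all genes 26.7% were above all 4 and 29.9% below.

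Within ribosome assembly the lists moved by similar amounts. Factors of LSU assembly had a median log2 mRNA difference of 0.94 against BY4741 (34 of 88 past 2-fold higher) and 0.59 against the reporter strains. SSU processome factors, which make the early cleavages of pre-rRNA, had 0.89 (23 of 62) and 0.56. For late SSU maturation the medians were 0.77 (4 of 18) and 0.50, and for core proteins of the small nucleolar ribonucleoproteins (snoRNPs), which modify rRNA, 0.69 (4 of 15) and 0.46. RNA polymerase I genes had 0.51 (1 of 15) and 0.40, and RNA polymerase III genes 0.38 (2 of 21) and 0.13. None of these lists had a member past 2-fold lower, beside a median of 0 over all genes.

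FAF1, which acts in pre-rRNA processing for the SSU, was highest of the ribi genes. It had 47.1 RPKM of mRNA in yJW1864, 10.8 RPKM in BY4741, and 24.8, 23.1 and 21.5 RPKM in yJW1861, yJW1862 and yJW1863, a log2 difference of 2.24 against BY4741 (95% counting interval 2.02 to 2.46). The 4 intact strains stayed below 25 RPKM, and BY4741 was the lowest. DHR2, a helicase of the SSU processome, had 34.2 RPKM in yJW1864, 11.4 RPKM in BY4741 and 14.9 to 16.8 RPKM in the reporter strains (log2 1.70 against BY4741, 1.25 against the reporter strains). SAS10, a component of the SSU processome, had 32.3 RPKM in yJW1864 and 9.52 RPKM in BY4741, but 27.0 to 28.7 RPKM in the reporter strains, so its log2 difference was 1.89 against BY4741 and 0.35 against the reporter strains. NOP7, a factor of LSU assembly, had 338 RPKM in yJW1864, 135 RPKM in BY4741 and 173 to 202 RPKM in the reporter strains. LTV1, which helps export and mature the SSU, had 85.6 RPKM in yJW1864, 30.04 RPKM in BY4741 and 51.8 to 55.8 RPKM in the reporter strains. NOP2, an rRNA methyltransferase of the LSU pathway, had 151 RPKM in yJW1864, 86.0 RPKM in BY4741 and 107 RPKM in yJW1863, the other strains having an altered NOP2 (log2 0.93 against BY4741, 0.87 to 1.00). RIO1, a kinase of late SSU maturation, had 38.4 RPKM in yJW1864, 24.4 RPKM in BY4741 and 28.7 to 34.3 RPKM in the reporter strains. At the low end of the LSU list, JIP5 had 61.3 RPKM in yJW1864, 60.3 RPKM in BY4741 and 58.0 to 64.6 RPKM in the reporter strains, which overlap. GEP3 (log2 -0.29) and SQS1 (-0.13) were the lowest ribi genes, and neither was past 2-fold.

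**Figure D2:**
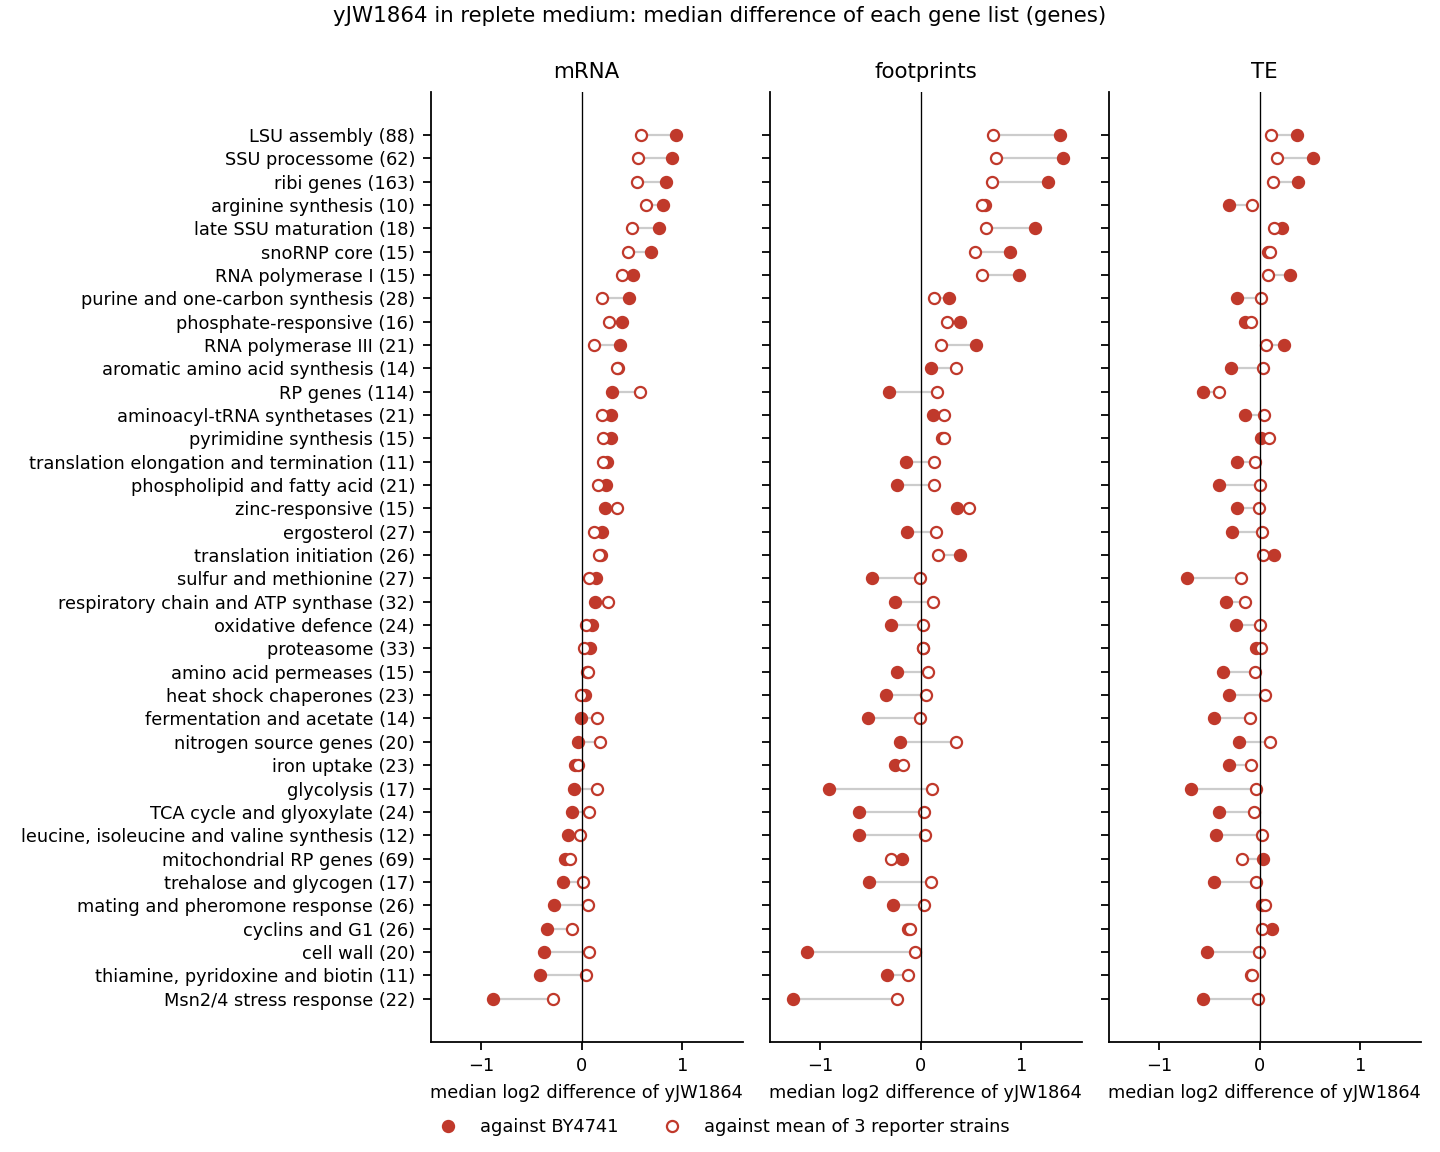
Median log2 difference of each gene list with at least 10 members that met the minimums, in mRNA, footprints and TE, for yJW1864 against BY4741 (filled) and against the mean of the 3 reporter strains (open). The number of genes stands beside each list. Ribosome assembly lists lie to the right in mRNA and footprints with both references, while the Msn2/4, cell wall and glycolysis lists lie at -1.27, -1.13 and -0.91 in footprints against BY4741 and at -0.24, -0.06 and 0.11 against the reporter strains.

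HXT2, a high-affinity glucose transporter, had the largest mRNA difference. Its mRNA was 147 RPKM in yJW1864, 24.1 RPKM in BY4741, and 51.9, 39.7 and 62.9 RPKM in yJW1861, yJW1862 and yJW1863 (log2 2.73 against BY4741, 2.61 to 2.85). PHO84, the high-affinity phosphate transporter, had 121 RPKM in yJW1864, 35.1 RPKM in BY4741, and 17.2, 17.1 and 12.7 RPKM in the reporter strains, so it was further from the reporter strains (log2 3.10) than from BY4741 (1.90). Both transporters were above all 4 intact strains without overlap, as were 26.7% of all genes. NCE103, carbonic anhydrase, had 908 RPKM in yJW1864 and 192 RPKM in BY4741, yet 760 RPKM in yJW1863 beside 183 and 233 RPKM in yJW1861 and yJW1862. The intact strains thus differed among themselves in NCE103 nearly as much as yJW1864 did from BY4741. Also among the 12 highest were ATP6, encoded by mitochondrial DNA (log2 2.15), RMT2, a methyltransferase that modifies Rpl12 (1.88), YNL095C (1.84), VEL1 (1.83) and BUD27, which acts in RNA polymerase assembly (1.72). Of these RMT2 had 92.7 RPKM in yJW1864 against 27.5 to 48.6 RPKM in the intact strains, and YNL095C had 34.1 RPKM against 10.1 to 13.1 RPKM.

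Among the genes with the lowest mRNA relative to BY4741 were genes of stress, the cell wall and carbon metabolism. MDH2, cytosolic malate dehydrogenase, had 35.8 RPKM in yJW1864, 193 RPKM in BY4741, and 140, 149 and 178 RPKM in yJW1861, yJW1862 and yJW1863 (log2 -2.31 against BY4741, -2.41 to -2.20). HSP12, a small stress protein of membranes, had 316 RPKM in yJW1864, 1116 RPKM in BY4741 and 898 to 1075 RPKM in the reporter strains. URA1, dihydroorotate dehydrogenase of pyrimidine synthesis, had 175 RPKM in yJW1864, 556 RPKM in BY4741 and 596 to 811 RPKM in the reporter strains. These 3 genes, picked from the 12 lowest, were below all 4 intact strains, as were 29.9% of all genes. WSC4, of a family of cell wall stress sensors, had 26.0 RPKM in yJW1864, 111 RPKM in BY4741 and 66.3 to 70.5 RPKM in the reporter strains. SPI1, a cell wall protein, had 24.7 RPKM in yJW1864, 88.9 RPKM in BY4741 and 36.7 to 43.6 RPKM in the reporter strains, so most of its log2 difference of -1.72 was between BY4741 and the rest. The others of the 12 lowest were BDH2 (-1.81), HSP26, a small chaperone (-1.69), YRO2 (-1.69), XBP1, a repressor induced by stress (-1.63), MSC1 (-1.62), PRY1, a sterol-binding protein (-1.60), and CWP1, a cell wall mannoprotein (-1.58).

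Targets of the stress activators Msn2 and Msn4 had a median log2 mRNA difference of -0.88 against BY4741, with 10 of 22 past 2-fold lower and 0 past 2-fold higher, and -0.28 against the reporter strains. Their median level relative to all genes was -0.25 in yJW1864, 1.06 in BY4741, and 0.72, 0.75 and 0.29 in yJW1861, yJW1862 and yJW1863. Of the 22, 14 were below all 4 intact strains in yJW1864 and 2 above, beside 29.9% and 26.7% of all genes. The list overlaps the genes above: SPI1 and HSP12 were its lowest members, SSA3 (0.51) and HSP78 (0.24) its highest. Among 20 cell wall genes 2 were past 2-fold lower, CWP1 and SED1 (log2 -1.20), but the list's median of -0.38 against BY4741 became 0.07 against the reporter strains. Heat shock chaperones had a median of 0.04, with only SSE2, an Hsp70 co-chaperone, past 2-fold lower among 23 (-1.48).

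**Figure D3:**
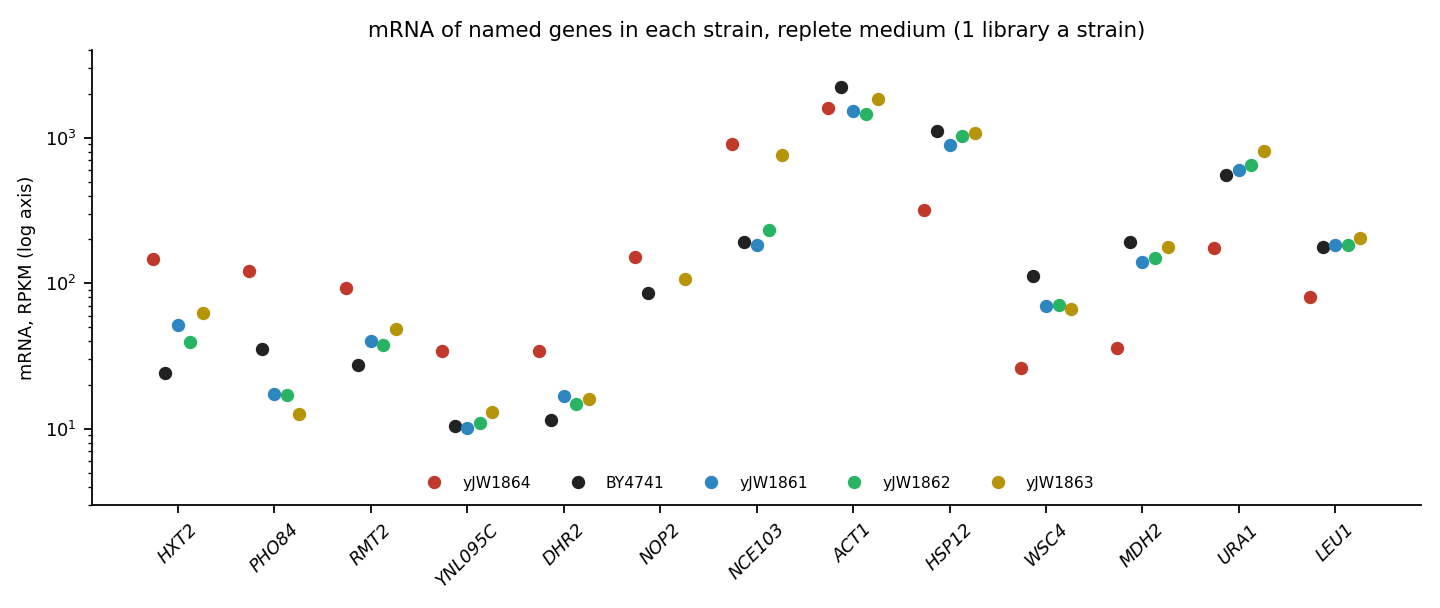
mRNA of named genes in RPKM on a log axis, 1 point for each strain. yJW1864 is above all intact strains in HXT2, PHO84, RMT2, YNL095C and DHR2, below all in HSP12, WSC4, MDH2, URA1 and LEU1, and close to yJW1863 in NCE103.

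Amino acid synthesis did not move as 1 group. Arginine synthesis genes had a median log2 mRNA difference of 0.81 (4 of 10 past 2-fold higher) and 0.64 against the reporter strains, with ARG7 (1.22) among those past 2-fold and ARG2 (-0.15) lowest. Lysine synthesis had 0.62, with LYS20, homocitrate synthase, past 2-fold (1.38), and histidine synthesis 0.68, with HIS4 past 2-fold (1.17). In leucine, isoleucine and valine synthesis the median was -0.13, and LEU1, isopropylmalate isomerase (-1.04), and OAC1, a mitochondrial carrier (-1.17), were past 2-fold lower. Both are known targets of the activator Leu3. LEU1 had 79.8 RPKM in yJW1864 and 179 to 203 RPKM in the intact strains, and OAC1 had 28.7 RPKM in yJW1864 and 70.4 to 80.6 RPKM in the intact strains. In the sulfur and methionine list the median was 0.15, with 16 of 27 genes above 0, and 3 of 27 were past 2-fold lower. MET2, homoserine acetyltransferase, had 8.13 RPKM in yJW1864 and 21.5 to 33.2 RPKM in the intact strains, and MET3, ATP sulfurylase, had 22.9 RPKM in yJW1864 and 50.0 to 82.4 RPKM in the intact strains. SUL2, a sulfate permease, had 6.78 RPKM in yJW1864, 15.3 RPKM in BY4741 and 15.6 to 26.4 RPKM in the reporter strains. These 3 genes did not overlap between yJW1864 and the intact strains. In the whole list 9 of 27 genes were above all 4 intact strains and 10 below, beside 26.7% and 29.9% of all genes.

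Among nucleotide genes, URA7, a CTP synthase, was past 2-fold higher (log2 1.17) and URA1 past 2-fold lower, and the purine and one-carbon list had a median of 0.47 with ADE1 and ADE5,7 (1.00 each) at its top. Of 16 phosphate-responsive genes PHO84 was past 2-fold higher and PHM7 past 2-fold lower (-1.13). Of 15 zinc-responsive genes VEL1 and ADH4 were past 2-fold higher. ADH4, an alcohol dehydrogenase, had 1678 RPKM in yJW1864, 744 RPKM in BY4741 and 175, 250 and 639 RPKM in yJW1861, yJW1862 and yJW1863, so the intact strains spread widely here too. Mitochondrial RP genes had a median of -0.16, with 31 of 69 below all 4 intact strains, beside 29.9% of all genes, and 0 above. Among 26 genes of cyclins and the G1 program the median was -0.35, with 13 below all 4, beside the same 29.9%, and none past 2-fold. GCN4, the activator of amino acid synthesis, had 822 RPKM in yJW1864, 1010 RPKM in BY4741 and 456 to 785 RPKM in the reporter strains, and ACT1, actin, had 1610 RPKM in yJW1864, 2218 RPKM in BY4741 and 1458 to 1853 RPKM in the reporter strains. Neither set yJW1864 apart. No member of the PAU family met the minimums, and the medians of the remaining lists lay between -0.41 (thiamine, pyridoxine and biotin) and 0.36 (aromatic amino acid synthesis).

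No strain was replicated, and the only test sets yJW1864 against 4 different intact strains sampled once each. It assumes that the single yJW1864 sample varies as these strains do, so its calls say only that a gene stood outside the spread between them. yJW1861 and yJW1862 were both made from the same klNOP2 strain. Their mRNA SD was 0.11, beside 0.24 to 0.35 for the other pairs of intact strains. The test counts them as 2 independent strains, which can understate the spread, most of all where BY4741 is left out. edgeR's quasi-likelihood test called 165 of 4968 genes higher in mRNA at an adjusted p under 0.05, 3.32%, and 10 lower, 0.201%. Of the genes called higher 58 were ribi genes, of 164 ribi genes tested, and 0 of the genes called lower were. DESeq2 called 349 higher and 40 lower. Leaving out yJW1861 gave 63 and 9, leaving out yJW1863 gave 76 and 3, and leaving out BY4741 gave 514 and 39. In that last fit 116 of the 164 ribi genes were higher, beside 10.3% of all genes. The count also fell to 34 higher and 6 lower when the different CDS masks were not offset.

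PHO84 had a fitted log2 difference of 2.75 ± 0.44 (SE, edgeR adjusted p = 0.0237), HXT2 of 1.93 ± 0.37 (0.0398), YNL095C of 1.82 ± 0.19 (0.0165), RMT2 of 1.48 ± 0.24 (0.0248) and DHR2 was also called, at 1.43 (0.0179). LYS20 was called at 1.52 ± 0.22 (0.0204), with 437 RPKM in yJW1864 and 151 to 207 RPKM in the intact strains. FAF1 (adjusted p = 0.0533), LTV1 (0.0667) and NCE103 (0.314) did not pass. FAF1 and LTV1, both named because they were highest in their lists, were above all 4 intact strains in RPKM, as given above. Over all genes 26.7% were above all 4 in mRNA, so this does not stand in for the test. PHO84 and HXT2 lost the call without yJW1863 and without the length offset, as RMT2 did without the offset.

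The 10 genes called lower were named after their values were seen. MDH2 had a fitted log2 difference of -2.01 ± 0.30 (adjusted p = 0.0204), URA1 of -1.70 ± 0.27 (0.0248) and HSP12 of -1.501 ± 0.23 (0.0204). MET2 (-1.53), MET3 (-1.34), OAC1 (-1.19), LEU1 (-1.02), DIC1, a mitochondrial dicarboxylate carrier (-1.25), RIB4, of riboflavin synthesis (-1.13), and ADR1, an activator of genes repressed by glucose (-0.69), made up the rest. Each was lower in yJW1864 than in all 4 intact strains, as were 29.9% of all genes. The 10 were chosen by a test against these same samples, so this is no separate support. All 10 remained called without BY4741, while without yJW1863 only 3 genes were called lower, neither MDH2 nor HSP12 among them, and URA1 lost the call without the length offset.

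In footprints the differences from BY4741 were wider, with 398 genes past 2-fold higher in yJW1864, 8.15%, and 262 past 2-fold lower, 5.36%. Without subtraction of the median the counts were 856 and 96. Ribi genes had a median 2.40-fold higher (log2 1.26, 1.21 to 1.38), 113 of 163 past 2-fold higher and 0 lower. Against the reporter strains the median was 0.71. Of the 162 ribi genes 145 were above all 4 intact strains and 1 below, beside 20.5% above and 27.7% below over all genes. Footprints of FAF1 were 38.4 RPKM in yJW1864, 2.84 RPKM in BY4741 and 14.3 to 17.5 RPKM in the reporter strains, those of NOP7 were 200 RPKM in yJW1864, 38.4 RPKM in BY4741 and 92.4 to 121 RPKM in the reporter strains, and those of NOP2 were 117 RPKM in yJW1864, 37.8 RPKM in BY4741 and 84.7 RPKM in yJW1863. For these ribi genes yJW1864 was the highest and BY4741 the lowest.

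Against the 4 intact strains edgeR called 0 genes in footprints in either direction, with 558 at an unadjusted p under 0.05, and DESeq2 called 137 higher and 30 lower, 47 of those higher being ribi genes. Without BY4741 edgeR called 831 of 4968 genes higher, 16.7%, and 147 lower, 2.96%, and 140 of the 164 ribi genes were higher. FAF1 then had a fitted log2 difference of 1.598 ± 0.15 (adjusted p = 5.02e-04), NOP7 of 1.28 ± 0.17 (0.00149), LTV1 of 1.16 ± 0.16 (0.00206) and MDH2 of -1.79 ± 0.16 (4.75e-04). SUL2 was at -2.51 ± 0.34 (0.00179), with 2.05 RPKM in yJW1864, 8.56 RPKM in BY4741 and 9.39 to 18.8 RPKM in the reporter strains. The edgeR calls in footprints were thus made only without the BY4741 library.

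The lists that were lower in footprints against BY4741 were for the most part those in which BY4741 alone was high. Msn2/4 targets had a median of -1.27 (16 of 22 past 2-fold lower) but -0.24 against the reporter strains, cell wall genes -1.13 (11 of 20) but -0.06, and glycolysis -0.91 (5 of 17) but 0.11. In the same measure BY4741 lay 1.07, 0.85 and 1.09 above the reporter strains in these lists. For Msn2/4 targets yJW1864 was also the lowest strain. Their median footprint level relative to all genes was 0.54 in yJW1864, 1.18 to 1.38 in the reporter strains and 2.75 in BY4741. Below all 4 intact strains were 14 of 22 Msn2/4 targets, 9 of 20 cell wall genes and 1 of 17 glycolysis genes, beside 27.7% of all genes. CCW12, a major cell wall protein, had 19140 RPKM of footprints in yJW1864, 47520 RPKM in BY4741 and 17600 to 22750 RPKM in the reporter strains. GLK1, glucokinase, had 353 RPKM in yJW1864, 790 RPKM in BY4741 and 337 to 407 RPKM in the reporter strains. In both genes yJW1864 lay among or near the reporter strains. The 6 largest falls in footprints were SPI1 (-3.24), TPO2, a polyamine exporter (-3.09), BDH2 (-2.86), YRO2 (-2.74), MDH2 (-2.65) and WSC4 (-2.53). All 6 were also lower than the mean of the reporter strains, with log2 differences of -0.69 for SPI1, -2.33 for TPO2, -1.32 for BDH2, -1.51 for YRO2, -1.90 for MDH2 and -1.49 for WSC4.

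**Figure D4:**
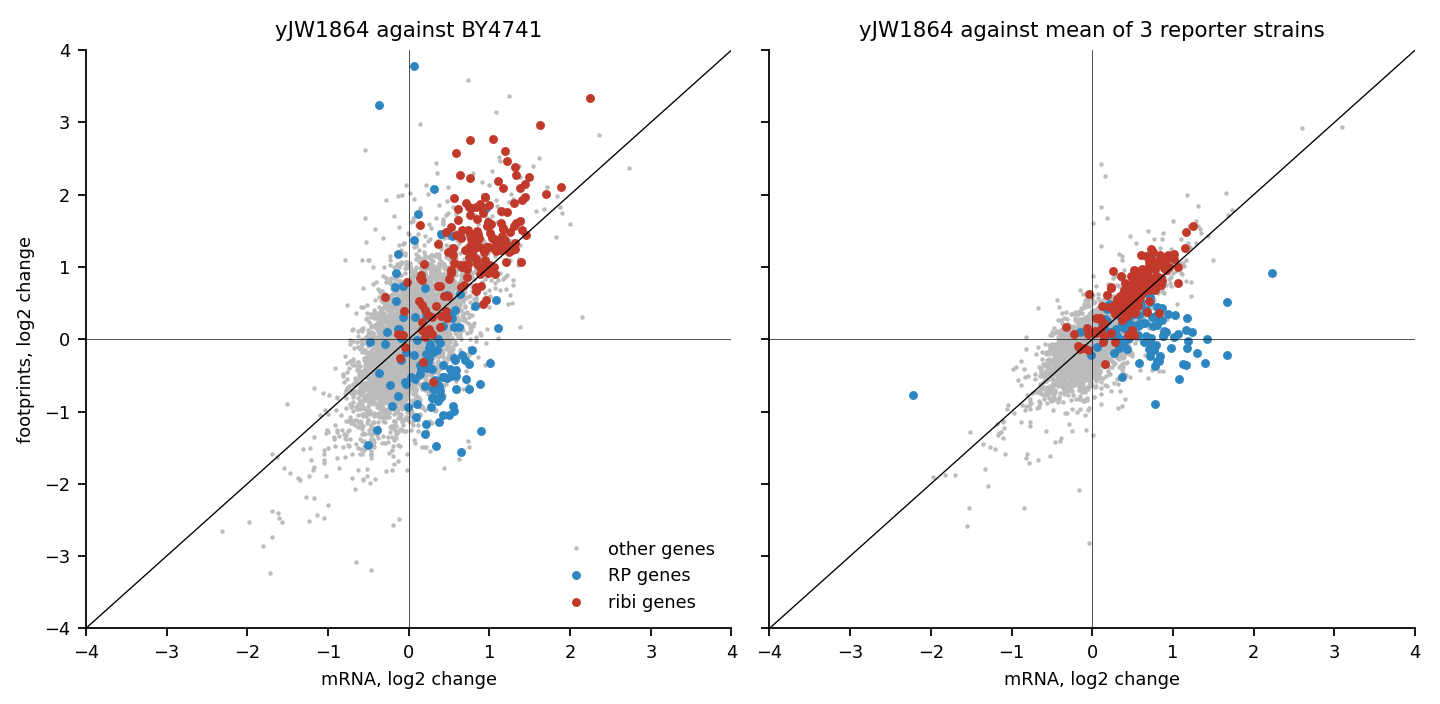
log2 difference in footprints against log2 difference in mRNA for each gene, yJW1864 against BY4741 (left) and against the mean of the 3 reporter strains (right). The line marks equal change, that is, no difference in TE. Ribi genes lie above the line on the left (median TE difference 0.38) and close to it on the right (0.13), while RP genes lie below it on both sides (-0.56 and -0.40).

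In TE, 163 genes were past 2-fold higher, 3.34%, and 146 past 2-fold lower, 2.99%, and without subtraction of the median 803 and 23. Few of these genes kept such a difference against the reporter strains, 3 of the 159 higher and 16 of the 139 lower genes that met the minimums in all 5 strains. The median TE of the ribi genes was 1.30-fold higher in yJW1864 than in BY4741 (log2 0.38, 0.32 to 0.49), with 24 of 163 past 2-fold higher and 0 lower. It was 0.13 above the reporter strains. Relative to all genes, the ribi median TE was 0.12 in yJW1864, -0.19 in BY4741, and -0.04, 0.00 and 0.06 in yJW1861, yJW1862 and yJW1863. In 76 of 162 ribi genes yJW1864 was above all 4 intact strains, beside 14.9% of all genes, and in 8 it was below all 4, beside 18.8%. BY4741 itself was below all 3 reporter strains in 98 of the 162.

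RRP15, of LSU assembly, had the largest TE difference of the ribi genes. It had a TE of 0.772 in yJW1864, 0.133 in BY4741, 0.729, 0.719 and 0.729 in the reporter strains, and 0.843 in BY4741 harvested without CHX. CGR1, of LSU assembly but without the authors' ribi mark, had a TE of 0.684 in yJW1864, 0.0700 in BY4741, 0.553 to 0.735 in the reporter strains and 0.659 in BY4741 without CHX. In both genes yJW1864 was within or next to the range of the reporter strains and BY4741 with CHX was far below, though on only 18 footprints in CGR1. ESF1, an SSU processome factor outside the authors' ribi mark, differed from this, with a TE of 0.683 in yJW1864, 0.196 in BY4741 and 0.351 to 0.479 in the reporter strains.

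edgeR's interaction test called 0 genes for TE against the 4 intact strains, with 112 at an unadjusted p under 0.05 and 9 called lower by DESeq2. Against the 3 reporter strains it called 7 genes higher, 0.141%, and 39 lower, 0.785%. ESF1 was among the 7, with a fitted log2 difference of 0.85 ± 0.15 (adjusted p = 0.0237), and 0 of the 164 genes marked as ribi were called in either direction. The others of the 7 were GSC2, a glucan synthase, FIG2, TRK2, a potassium transporter, MFA1, with 7 mRNA counts in yJW1864, and 2 RP genes. Among the 39 were SUL2 (-1.02 ± 0.18, adjusted p = 0.0289) and MET3 (-0.79 ± 0.14, adjusted p = 0.0237), the sulfur genes that were also low in mRNA. MET3 had a TE of 0.622 in yJW1864, 1.05 in BY4741 and 1.11 to 1.24 in the reporter strains, and SUL2 had 0.303 in yJW1864, 0.559 in BY4741 and 0.603 to 0.730 in the reporter strains. All these were named after their values were seen.

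The largest rises in TE against BY4741 were in short genes, and in each of them BY4741 alone was low. RPS19B, an RP gene, had a TE of 0.966 in yJW1864, 0.0507 in BY4741 and 1.13 to 1.87 in the reporter strains, and 0.901 in BY4741 without CHX. RPL39 had 2.65 in yJW1864, 0.150 in BY4741, 2.53 to 3.93 in the reporter strains and 2.57 in BY4741 without CHX. RPB10, a subunit shared by the RNA polymerases, had 1.19 in yJW1864, 0.0917 in BY4741, 1.70 to 1.92 in the reporter strains and 1.26 in BY4741 without CHX. In all 3 the footprints of the BY4741 library with CHX were the exception. The same held for YBL028C (log2 2.87 against BY4741, 0.05 against the reporter strains), LSM4, an Sm-like protein (2.85 and 0.10), and STE18, the γ subunit of the pheromone-response G protein (2.22 and -0.27). The unmasked CDS was 40 bases long in RPS19B and 48 in RPL39, and its median was 690 bases for genes past 2-fold higher in TE and 490.5 for those lower, against 1176 over all genes. The SD of the TE difference from BY4741 was 0.95 in genes with under 300 unmasked bases and 0.41 in genes with over 1500, and against the reporter strains it was 0.45 and 0.24.

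Of the 6 largest falls in TE, TPO2 was the one that stayed past 2-fold against the reporter strains. Its TE was 0.0527 in yJW1864, 0.196 in BY4741, 0.145, 0.116 and 0.230 in yJW1861, yJW1862 and yJW1863, and 0.888 in BY4741 without CHX (log2 -2.41 against BY4741, -1.49 against the reporter strains). It rested on 51 footprints in yJW1864 and 309 in BY4741, and edgeR's test against the reporter strains did not call it (adjusted p = 0.116). LSM3 had a TE of 1.50 in yJW1864, 5.00 in BY4741 and 1.35 to 1.91 in the reporter strains, so only BY4741 was high. HHT1 and HHT2, near-identical copies of the histone H3 gene whose reads are hard to assign, RPL43A and RPS26A, each 1 of a pair of RP paralogs, made up the rest. Their log2 differences were -2.13, -2.21, -2.20 and -2.15 against BY4741 and -0.44, -0.21, -0.92 and -0.28 against the reporter strains.

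**Figure D5:**
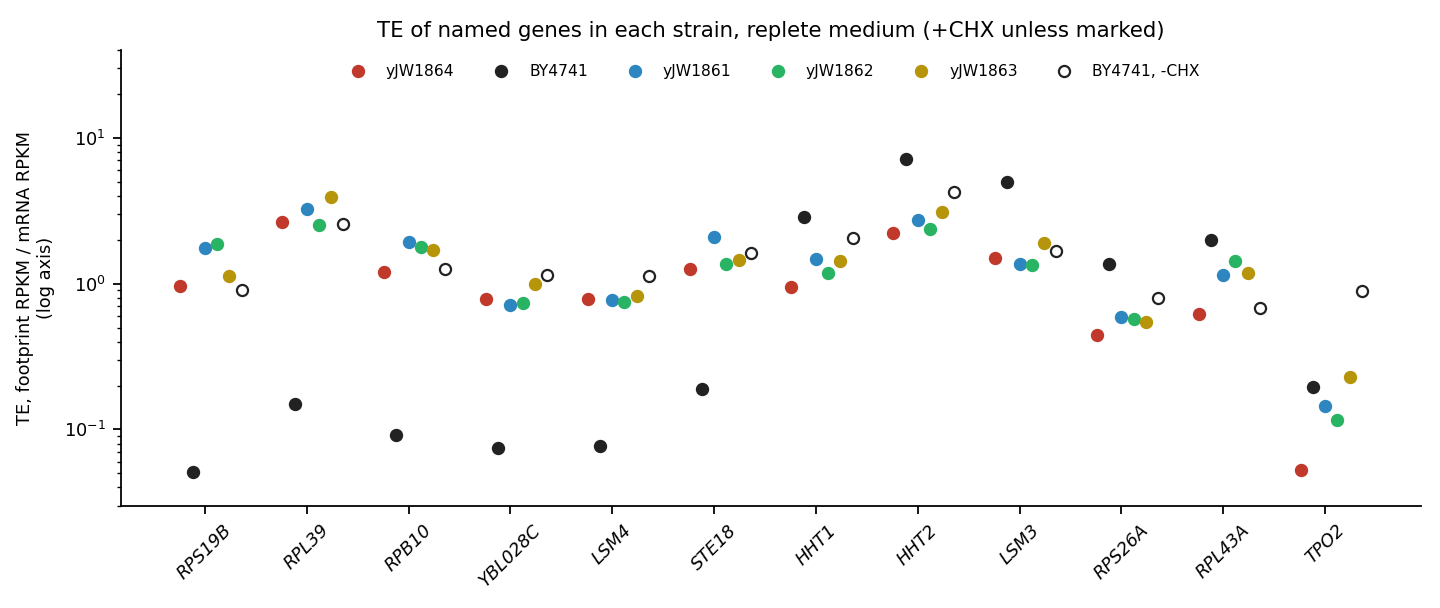
TE of the 6 genes with the largest rises and the 6 with the largest falls against BY4741 among genes with at least 32 footprints in both strains, on a log axis, 1 point for each strain with CHX and an open point for BY4741 without CHX. BY4741 with CHX lies below all other points in the 6 genes on the left, and yJW1864 lies lowest in TPO2.

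The RP genes lay above 0 in mRNA and below 0 in TE with both references. Their median log2 mRNA difference was 0.31 against BY4741 (4 of 114 past 2-fold higher, 0 lower) and 0.58 against the reporter strains, and 84 of 113 were above all 4 intact strains, beside 26.7% of all genes. In footprints the median was -0.32 against BY4741 but 0.16 against the reporter strains, a change of sign. TE was lower with both references, -0.56 (29 of 114 past 2-fold lower, 8 higher) and -0.40, and 67 of 113 RP genes were below all 4 intact strains, beside 2.99% of all genes past 2-fold lower, 3.34% higher and 18.8% below all 4. Against the reporter strains 28 RP genes were among the 39 called lower in TE by edgeR, and 2 among the 7 called higher. Lower TE was not particular to RP genes among short genes. Over all genes with under 300 unmasked bases the median TE difference was -0.31 against BY4741 and -0.26 against the reporter strains. In genes with over 1500 unmasked bases it was -0.007 and 0.07. The CDS mask moves with the RP result, since RP genes are short. Their median unmasked length was 87 bases in yJW1864 and BY4741 and 138 in the reporter strains. Of 26 of these 28 genes that met the minimums in all 5 strains, BY4741, which shares the mask of yJW1864, was also below all 3 reporter strains in 17. RPL36A, for example, had a TE of 0.943 in both yJW1864 and BY4741 and 2.24 to 2.39 in the reporter strains. RPL17A in contrast had 2.28 in yJW1864, 3.35 in BY4741 and 3.40 to 3.76 in the reporter strains. The 26 genes were chosen by low TE in yJW1864 against these same reporter strains. Over all 113 RP genes, BY4741 was below all 3 reporter strains in 37 and above them in 60. For yJW1864 these counts were 86 and 3. The part of the mask in these values was not tested. Many RP genes are paralog pairs with few unique bases, so values of single RP genes are uncertain.

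Genes next to the 3 loci named in the label showed no common direction. Around DOT6, log2 mRNA differences against BY4741 were -0.30 for AIM10, 0.41 for SBH1, -0.16 for PTC2 and 0.68 for TRP2. Around TOD6 they were -0.17 for PTC3, 0.48 for YBL055C, 0.06 for SAS3 and -0.18 for PIN4, and around STB3 0.36 for TAF10, 0.05 for CDC37 and 0.07 for SEC7, YDR169C-A not meeting the minimums. None was past 2-fold in mRNA. SBH1 was past 2-fold in footprints against BY4741 (1.28) but was at -0.01 against the reporter strains.

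The direction of the mRNA differences was mostly the same in the starved samples of yJW1864 and BY4741, taken after 20 min without amino acids. By the study's methods the starved and replete samples of a strain are portions of 1 culture, so they are not independent samples. Of the 143 genes past 2-fold higher in replete medium, 114 met the minimums there, 109 were higher and 97 past 2-fold higher. Of the 42 past 2-fold lower, 41 met them, 38 were lower and 20 past 2-fold lower. Of all 4884 genes, 4804 met the minimums in starved cells, with a median log2 mRNA difference of 0.005. The share of all genes past 2-fold in starved cells is not given here, so these counts have no background beside them. MDH2 (log2 -2.88), HSP12 (-2.72) and RMT2 (3.31) had larger differences in starved cells than in replete ones. NCE103 (-0.26) and YRO2 (-0.09) had nearly none in starved cells. Of the genes called lower by edgeR in replete medium, MET3 (0.48) and DIC1 (0.07) were on the other side of 0 in starved cells. The ribi median in mRNA was 1.79 in starved cells and 0.84 in replete ones, and the difference between the conditions was not tested.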

How the data were processed

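Libraries and groups were taken from the labels. Per the labels and the study's methods, the authors removed rRNA and tRNA reads with Bowtie 1.1.2, aligned the rest to sacCer3 with TopHat2 2.1.1 and counted reads on each CDS, with non-unique positions and both CDS ends masked. The deposited counts are raw, and the deposited RPKM values are those counts divided by the authors by unmasked CDS length and depth. Whether reads with the same molecular identifier were collapsed is not given in the sources used here, so counting intervals cover counting error only and nothing covers the spread between cultures.

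Log2 ratios of deposited RPKM were computed where both strains had more than 127 mRNA reads and at least 1 footprint, leaving out 784 dubious ORFs, and the median over genes was subtracted. edgeR 4.0.16 (TMM, quasi-likelihood test, Benjamini-Hochberg adjustment) was run on deposited counts of 5 strains with log CDS length as offset, for genes that passed the same minimums on average, and TE was tested as an interaction with the strain as a block. Its p-values measure the spread between single cultures of 4 different intact strains, of which yJW1861 and yJW1862 share a parent strain. The test was tried on simulated data first. DESeq2 1.42.0 was an alternative. Other alternatives were minimums, scaling, the length offset, the reference strains and leaving out each intact strain.

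Named genes were the 12 largest rises and falls past 2-fold in mRNA, the 6 largest in footprints and in TE with at least 32 footprints in both strains, the 2 highest and 2 lowest members of described lists, neighbours of the deleted genes and 8 genes the study names, and others were named after their values were seen. A gene that this rule also takes is not reported here. The members and the gene lists were chosen with earlier results of these data known. Ribi genes are those the authors mark in their files. All 4884 genes were found in the RefSeq table of assembly R64, which has the coordinates of sacCer3.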

Additional observations from a re-analysis of the deposited data

Results flagged for a closer look

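In 12 of 126 sets of 4 values, a gene list's median level in 1 intact strain lay far from the other 3, as judged by its gap over the range (Dixon's test at 95%, which chance passes in about 1 in 20 sets). BY4741 was that strain in 9 of the 12. Its footprints were high for Msn2/4 targets (gap over range 0.873), glycolysis (0.845), the TCA cycle (0.908), phosphate-responsive genes (0.933) and phospholipid and fatty acid genes (0.844). Its TE was high for glycolysis (0.849), RP genes (0.835) and leucine, isoleucine and valine synthesis (0.943), and its mRNA for trehalose and glycogen (0.836). The others were RNA polymerase I in yJW1861, low in footprints (0.940) and TE (0.962), and aminoacyl-tRNA synthetases in yJW1863, high in mRNA (0.894).

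Reads were also found on genes with a deletion allele by label, and these genes are outside the comparisons. STB3 had 921 mRNA counts in yJW1864. In replete medium MET17, labelled met15-Δ0, had 148 footprints in BY4741 and 0 in yJW1864 and in the 3 reporter strains. LEU2 had 28 footprints in BY4741 and 17 in yJW1864, against 0 in the reporter strains. In starved cells LEU2 had 895 footprints (65.4 RPKM) but 1 mRNA count in yJW1864, and 17 footprints in BY4741. HIS3, labelled his3-Δ1, had 756 mRNA counts in yJW1864 and 704 in BY4741 in replete medium. The labels do not give how much of HIS3 this allele removes, so its reads are not taken to go against the label.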

How the results depend on the processing

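Counts of genes past 2-fold against BY4741 stayed within 1.5 times, and the ribi medians within their intervals, with a minimum of 32 footprints, minimums on means, TMM-scaled CPM and dubious ORFs included, and the ribi medians also with the union of 4 lists of ribosome assembly. Counts are given as higher and lower. With more than 511 mRNA counts they were 94 and 23 (mRNA), 248 and 162 (footprints) and 77 and 79 (TE), from fewer genes. With no filter, 121 genes were lower in mRNA, and 290 and 246 differed in TE. Requiring the whole counting interval past 2-fold left 95 and 25 (mRNA) and 60 and 77 (TE). Without subtraction, 92 genes were higher in mRNA, 856 and 96 differed in footprints and 803 and 23 in TE, with ribi medians of 0.72, 1.68 and 0.90. With the mean of the 4 intact strains as reference the counts were 58 and 24, 131 and 53, and 7 and 34, and the ribi medians 0.62, 0.86 and 0.21. With the 3 reporter strains, added after seeing the data, they were 56 and 23, 82 and 44, and 8 and 40, and 0.56, 0.71 and 0.13.

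The RP median in footprints turned positive without subtraction (0.098), with the 4 intact strains (0.039) and with the reporter strains (0.16) as reference. With the reporter strains, TE changed sign in RPS19B (-0.60), RPL39 (-0.18), YML108W (-0.0069), RPB10 (-0.51), STE18 (-0.27) and LSM3 (0.067), and footprints in RPL39 (-0.11), LSM4 (-0.030), RPB10 (-0.025), LSM3 (0.23), RPS26A (0.40), CCW12 (0.20), ACT1 (0.045) and SBH1 (-0.014).

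Leaving out 1 intact strain at a time, edgeR called 63 to 514 genes higher and 3 to 39 lower in mRNA (19 to 116 ribi genes), 0 to 831 and 0 to 147 in footprints (0 to 140 ribi genes), and 0 to 7 and 0 to 39 in TE. DESeq2 called 349 and 40 in mRNA (103 ribi genes), 137 and 30 in footprints (47) and 0 and 9 in TE. No length offset left 34 and 6 in mRNA (11 ribi genes). The cause of these changes was not tested. The search for promoter motifs was not run. No paired analysis was possible because each strain has 1 replete sample, so replicate numbers pair nothing. Only the TE test pairs mRNA and footprints, by strain.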
